A study of Mus musculus with 8 samples.

Results

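The control libraries of cultured embryonic mouse cardiomyocytes were described here on their own, as the baseline transcriptome of these cells. They were the 4 of the 8 libraries of the series whose treatment label was control. The other 4, grown with 10 µM simvastatin, were not used. All came from C57/Bl6 embryos at day 12.5 (E12.5), with male and female embryos pooled, and were wild type as far as the labels say. The controls carried no agent that the labels name, and the labels do not say whether a vehicle was added. The headers of the count columns name a control number and a set for each library: set 1 held replicates 1 and 3, and set 2 held replicates 2 and 4. The labels do not define the sets further. As a model, the libraries have limits that the labels themselves show. The series text speaks of isolated cardiomyocytes in culture and the extraction text of RNA from dissected hearts, and neither says which chambers were taken or how long the cells were grown. Nothing says that the replicates were separate cultures, so the spread between them may be technical.

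At midgestation the mouse heart already beats, with atria, trabeculated ventricles and conducting myocardium in place. Its sarcomeres are built from families of near-equivalent proteins, of which the embryonic, atrial, ventricular and skeletal muscle members replace each other during development. Glycolysis supplies much of the energy of the embryonic heart, and the switch to fatty acid oxidation follows around birth. Which family member a culture uses, and which other cell types it holds, therefore describes what kind of heart muscle is being studied.

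Totals ran from 31457872 to 35215640 counts per library over 49315 genes, and every pair of libraries differed by more than counting noise. Levels are given as TPM, that is, a gene's counts divided by its length in the deposited table, scaled so that each library sums to 1000000. TPM allows levels of different genes to be compared within a library. With totals of this size, 3 counts on a gene of 2000 bases are worth 0.107 to 0.130 TPM, and proportionally less on a longer gene. A level that rests on 3 counts or fewer in every library is not read. In each library 14027 to 14630 genes reached 1 TPM, and 12827 genes did so in all 4, of which 11189 were protein coding. Replicate 1 stands apart from the other 3 in a set of genes described at the end, and replicate 3 is lower in transcripts poor in G and C. Values that rest on these libraries are given per library.

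Transcripts that mark cardiomyocytes were present in every library, and those of other heart cells are described further below. All 8 of the cardiomyocyte genes examined were above 1 TPM in every library. Their sum lay between 38332 and 52926 TPM. Tnnt2, cardiac troponin T, was at 3559, 3757, 3741 and 3941 TPM in replicates 1 to 4. Actn2, the alpha-actinin of the Z-disc, was at 2934, 3520, 2692 and 3903 TPM. The giant proteins and the regulators were lower: titin (Ttn) was at 60.2, 26.8, 27.8 and 43.4 TPM and the ryanodine receptor Ryr2 at 21.6, 13.5, 15.7 and 18.5 TPM. Nkx2-5, the cardiac homeobox factor, was at 19.7, 19.9 and 29.1 TPM in replicates 2 to 4 but at 6.22 TPM in replicate 1.

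The 3 nuclear genes with the highest level were Actc1, Nppa and Myl7. Their upstream sequences are shown with that of Acta1, the skeletal muscle actin, and a match to the CArG box occurs in 3 of the 4. These genes were picked for display, so that number is no measure of how often the match occurs. The same 120 bases before Acta2, Myl2, Tnni1, Tnni3, Myh6 and Myh7, not printed, held no match. The CArG box is the sequence that serum response factor (SRF) binds, well known from muscle actin genes. The search took the CArG box on both strands (it reads alike on each) within 250 bases before each RefSeq start, and TATAAA on both strands. The 120 bases up to the base before the start are printed 5′ to 3′ on the gene's own strand, from RefSeq on GRCm38.p6, with CArG boxes and TATAAA in capitals.
Actc1, chr2:114052876-114052995, minus strand: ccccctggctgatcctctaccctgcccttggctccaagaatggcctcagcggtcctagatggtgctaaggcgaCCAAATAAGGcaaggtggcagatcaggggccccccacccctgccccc
Acta1, chr8:123894776-123894895, minus strand: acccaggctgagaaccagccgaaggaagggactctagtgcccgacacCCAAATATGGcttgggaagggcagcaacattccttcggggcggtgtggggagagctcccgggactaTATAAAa
Nppa, chr4:148000602-148000721, plus strand: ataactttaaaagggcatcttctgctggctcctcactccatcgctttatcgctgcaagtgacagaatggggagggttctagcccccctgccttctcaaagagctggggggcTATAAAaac
Myl7, chr11:5898783-5898902, minus strand: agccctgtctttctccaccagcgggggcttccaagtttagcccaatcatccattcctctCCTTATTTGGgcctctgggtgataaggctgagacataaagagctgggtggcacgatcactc
The files' gene model of Actc1 starts further upstream, so its window lies inside that model, with 12 bases in an exon. A CArG box began 47 bases before the start of Actc1, 73 before that of Acta1 and 61 before that of Myl7. Nppa and Acta1 had TATAAA 9 and 7 bases before their RefSeq starts.

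Across the contractile genes, 9 of the 35 at 100 TPM or more with a RefSeq window had a CArG box (25.7%). They were Actc1, Acta1, Actg1, Myl3, Myl6, Myl7, Myl9, Ldb3 and Myom1. Of the contractile genes under 100 TPM, 2 of 28 had one (7.14%). Of other protein-coding genes at 100 TPM or more, 24 of 1177 did (2.04%), and of all genes with a RefSeq window it was found for 439 of 27025 (1.62%). TATAAA was found in 5 of the 35 contractile genes (14.3%) and in 14.3% of all genes. The CArG search was chosen after the sequence of Actc1 was seen, and the 9 of 35 include Actc1. A match of letters is a description and not a binding site.

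Actc1, the cardiac actin of the thin filament, was the most abundant nuclear transcript, at 29312, 33879, 24340 and 30285 TPM in replicates 1 to 4. Nppa, which encodes atrial natriuretic peptide, followed at 24430, 24005, 26486 and 22666 TPM. Myl7, the atrial regulatory myosin light chain, came next at 20607, 18151, 22275 and 17724 TPM. Actc1 and Nppa were not separated in every library, since Nppa was the higher of the pair in replicate 3. Of the exon bases of Nppa, 61.5% lie opposite an exon of Gm13054 (328 TPM), and without the strand setting the reads of such pairs cannot be told apart.

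The 30 most abundant named genes together held 22.2% of all TPM. They fell into few functional kinds. Among them 10 encode sarcomere or contractile proteins: Actc1, Myl7, Tnnc1, Myh6, Myl9, Myl3, Acta2, Tnnt2 and Actn2, with the titin-binding Ankrd1. Tnnc1, the cardiac and slow muscle troponin C, was at 8099 to 8999 TPM, and Myh6, the alpha myosin heavy chain, at 5328 to 10053 TPM. Energy metabolism contributed the glycolytic genes Ldha, Gapdh, Pgam2 and Aldoa, the ADP/ATP carriers Slc25a4 and Slc25a5, and the respiratory or ATP synthase genes Cox6b1, Cox8a, Atp5b and Usmg5. The mitochondrial genome gave mt-Nd1 (11793 to 14883 TPM), mt-Cytb (8155 to 16226 TPM) and mt-Co1 (7491 to 14933 TPM). The iron stores Ftl1 and Fth1, at 4658 to 7615 and 4940 to 6061 TPM, were also in the list, with Crip2, Mif, Ubb and Cst3. Processed pseudogenes of Gapdh, Fth1, Ftl1, actins and similar genes are common in the genome, and the labels do not say how shared reads were counted, so these levels are less certain.

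**Figure D1:**
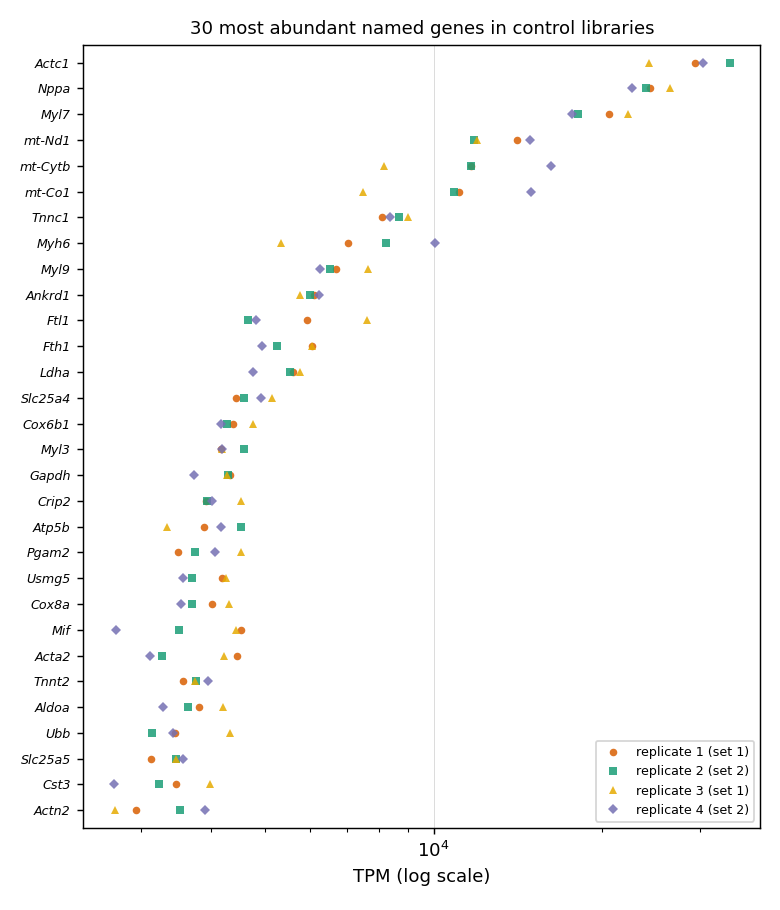
TPM on a log axis for the 30 most abundant named genes, with 1 point per control library and no average. Actc1, Nppa and Myl7 lie between 17724 and 33879 TPM in every library, and the lowest of the 30, Actn2, lies between 2692 and 3903 TPM.

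The order within the 30 depends on the length used. Usmg5 (a small ATP synthase subunit) had a mean of 3925 TPM with the deposited length and 361 TPM with that of its longest annotated transcript. Tnnt2 moved the other way, from a mean of 3749 TPM to 17873 TPM. Of the 30, 22 were also among the 30 highest protein-coding genes with the longest transcript as length. Actc1 kept the first place under both, at means of 29454 and 23879 TPM.

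In the myosin heavy chain family, Myh6 led with 93.8% of the summed level of 14 genes. Myh7, the beta chain that marks the embryonic ventricle and the stressed adult heart, was at 394, 549, 305 and 500 TPM. The ratio of Myh6 to Myh7 was 17.9, 15.0, 17.5 and 20.1 in the 4 libraries, a mean of 4.13 ± 0.18 on the log2 scale (SD, n = 4). Nonmuscle Myh10 (38.2 to 55.6 TPM) and Myh9 (9.60 to 14.9 TPM) followed. The skeletal muscle chains Myh1, Myh2, Myh3, Myh4 and Myh13 had no more than 6 counts in any library, and Myh8, the perinatal one, was at 0.623 to 1.29 TPM. Myh7b, a slow muscle relative, was at 5.44 to 13.9 TPM.

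The myosin light chains were atrial and ventricular at once. Myl7 held 65.2% of the regulatory family. Myl2, its ventricular counterpart, was at 2883, 3416, 2466 and 3038 TPM, and Myl7 was the higher in all 4 libraries (log2 ratio 2.74 ± 0.34, SD, n = 4). Myl9, the smooth muscle and nonmuscle form, stood between them at 6272 to 7638 TPM. In the essential family the order was the reverse: Myl3, the ventricular and slow muscle chain, was at 4158 to 4580 TPM and Myl4, the atrial and embryonic chain, at 735 to 906 TPM. Their log2 ratio of Myl4 to Myl3 was -2.43 ± 0.07 (SD, n = 4). With the longest transcript as length it was -1.25, and the mean of Myl4 rose from 797 to 2891 TPM, so the size depended on the length. With the deposited length, Myl1, the fast skeletal chain, was almost as high as Myl4 at 645 to 749 TPM.

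The troponins differed in how exclusive their choice was. Tnnc1 had no measurable partner, since Tnnc2, the fast skeletal form, had 0 counts in 3 libraries and 2 in replicate 4. Tnnt2 held 96.6% of the troponin T level, above Tnnt1 (95.5 to 127 TPM) and Tnnt3 (9.71 to 23.7 TPM). Troponin I was shared: Tnni1, the slow skeletal form of the embryonic heart, was at 2953, 3299, 3240 and 3243 TPM and Tnni3, the adult cardiac form, at 2838, 2787, 2889 and 2801 TPM. Tnni1 was higher in all 4 libraries, by a ratio of only 1.04 to 1.18. With the longest transcript as length that ratio rose to a mean of 1.56, so the direction held and the size depended on the length.

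Among the actins, Actc1 exceeded Acta1 by 41.7 to 46.2-fold, a log2 ratio of 5.46 ± 0.07 (SD, n = 4). The next actin was Acta2, the smooth muscle form that embryonic cardiomyocytes also make, at 4447, 3265, 4224 and 3106 TPM. Acta2, Actb (866 to 1870 TPM), Actg1 (826 to 1347 TPM) and Actg2 (29.9 to 74.8 TPM) were each lower in both libraries of set 2 than in both of set 1, an order that 22.9% of all genes at 1 TPM or more had. The actin coding sequences are close to identical, so reads shared between them are uncertain. All 4 tropomyosins had that same order between sets, led by Tpm1 at 2613 to 3056 TPM with 79.8% of its family.

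Mybpc3, the cardiac myosin binding protein C, was at 2168 to 3657 TPM. Mybphl, an atrial relative, was at 348 to 387 TPM, and the skeletal Mybpc1 and Mybpc2 reached no more than 7.19 TPM. In the M-band, Myom1 (166 to 269 TPM) exceeded Myom2 in every library (log2 ratio 2.03 ± 0.13, SD, n = 4), and Myom3 was at a mean of 0.182 TPM. Of 11 Z-disc genes 8 were at 100 TPM or more, led by Csrp3 (1100 to 1206 TPM) and Tcap (836 to 1036 TPM). Myoz2, the cardiac calsarcin, was at 138 to 168 TPM, and Myoz3 had no count, which allows at most 0.298 TPM per library. Nebulin was at 0.200 TPM on average, while its cardiac relatives Nebl (38.0 to 88.2 TPM) and Nrap (61.3 to 96.6 TPM) were present.

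Calcium handling genes showed one clear leader per family in most cases. Atp2a2, the cardiac calcium pump SERCA2, was at 659, 537, 717 and 681 TPM and held 99.4% of its family. Its inhibitors phospholamban (Pln, typical of ventricle) and sarcolipin (Sln, typical of atrium) were close to equal. Pln was at 931, 1019, 685 and 1034 TPM and Sln at 982, 859, 1097 and 887 TPM, with Pln the higher in set 2 and Sln in set 1. Ryr2 held 97.0% of the ryanodine receptors. The calsequestrins, which buffer calcium in the reticulum, were led by Casq1 rather than by the cardiac Casq2. Casq1, the skeletal muscle form, was at 1840, 2330, 1767 and 2059 TPM and Casq2 at 1093, 1273, 833 and 1208 TPM. Casq1 was above Casq2 in each library. Slc8a1, the cardiac sodium-calcium exchanger, was at 132, 190, 62.7 and 179 TPM, lowest in replicate 3. Its mean of 141 TPM fell to 16.5 TPM with the longest annotated transcript as length.

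Scn10a, a sodium channel pore subunit best known from sensory neurons and the conduction system, was at 12.4, 9.45, 10.4 and 10.3 TPM. All 4 sodium channel beta subunits were under 1 TPM on average. Of 10 calcium channel pore subunits, the T-type genes led: Cacna1h was at 10.5, 17.8, 15.7 and 19.9 TPM and Cacna1g at 9.18, 7.82, 10.0 and 9.25 TPM. T-type channels open at low voltage and are typical of embryonic and pacemaking heart cells. The L-type Cacna1c, which carries the main calcium current of the adult heart, was at 6.23, 5.37, 4.11 and 6.65 TPM. It exceeded the other L-type gene Cacna1d in all 4 libraries, by 9.60 to 14.9-fold. The beta subunits Cacnb2 and Cacnb3 could not be ordered, since Cacnb2 was higher only in replicate 4.

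Potassium channels were led by subunits of the rapid and slow delayed rectifiers, which end the action potential. Kcnh2 was at 82.3, 97.1, 112 and 125 TPM and Kcne1 at 102, 96.3, 95.5 and 95.1 TPM. Kcnq1, the pore that Kcne1 modulates, was at 15.0 TPM in replicate 1 and at 36.2, 36.1 and 40.4 TPM in the other 3. Kcnj5, a subunit of the acetylcholine-gated channel, exceeded its partner Kcnj3 by 3.61 to 5.90-fold in all 4 libraries. Kcnj2, which sets the resting potential, was at 18.3, 19.4 and 20.0 TPM in replicates 1, 2 and 4 and at 7.32 TPM in replicate 3. The transient outward genes were low: Kcnd2 was at a mean of 1.53 TPM and Kcnd3 had 4 to 11 counts per library, while Kcna4 was at 8.32 to 15.3 TPM.

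Pacemaker channels were low but measurable. Hcn4, the main one of the sinus node and the early heart tube, was at 6.04, 3.42, 7.42 and 3.37 TPM. It was lower in both libraries of set 2 than in both of set 1, while Hcn2 and Hcn3 were under 1 TPM. Gja1 (connexin 43), the gap junction protein of working myocardium, was at 1798, 1799, 1255 and 1899 TPM and held 80.9% of the connexins. Gja5 (connexin 40), of atria and trabeculae, was at 210 to 247 TPM. Gja3, best known from the eye lens, followed at 78.5 to 120 TPM.

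**Figure D2:**
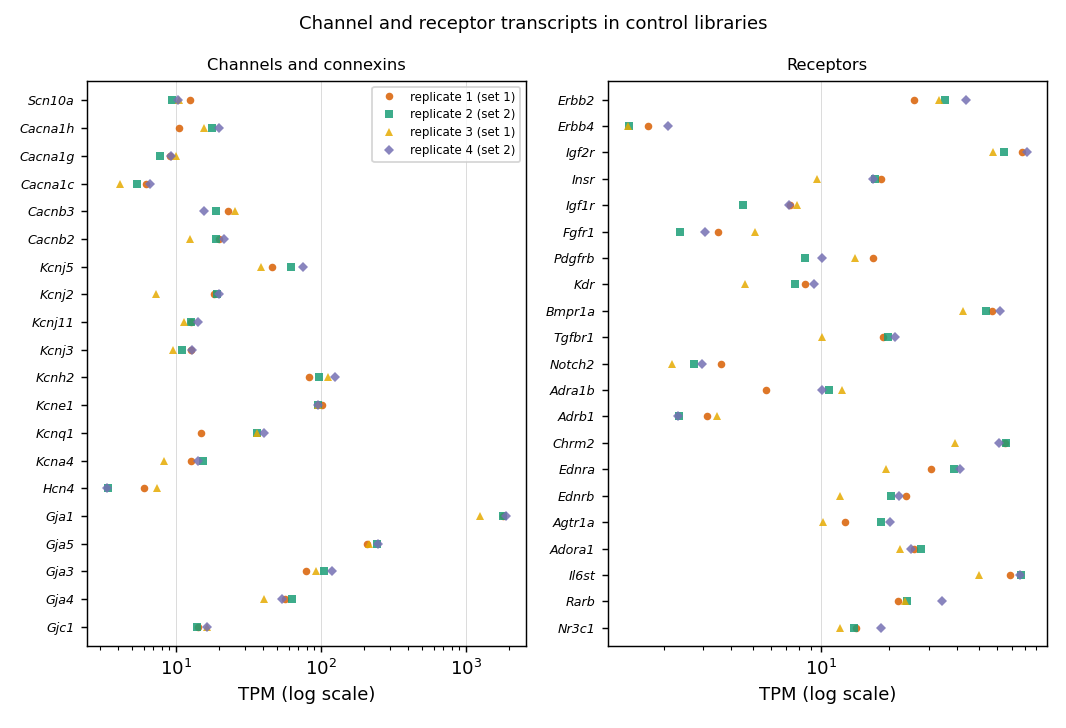
TPM on a log axis for channels and connexins (left) and receptors (right), with 1 point per control library. Gja1 at 1255 to 1899 TPM lies highest, and the yellow triangle of replicate 3 lies left of the other 3 points for Kcnj2, at 7.32 TPM.

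Glucose transport was led by Slc2a1. Slc2a1 (GLUT1), the insulin-independent transporter of embryonic tissue, was at 296, 333, 243 and 280 TPM and Slc2a4 (GLUT4), the insulin-responsive one, at 83.6, 88.2, 63.1 and 89.2 TPM. The ratio was 3.14 to 3.85, or 1.83 ± 0.13 on the log2 scale (SD, n = 4). Hk1 exceeded Hk2, the muscle hexokinase, by 2.81 to 3.40-fold. Of the phosphofructokinases, the liver form Pfkl (547 to 615 TPM) led over the muscle form Pfkm (253 to 327 TPM) in every library. Pfkp, at a mean of 295 TPM, was level with Pfkm, but it led the family with the longest transcript as length. Pgam2, the muscle phosphoglycerate mutase, held 88.7% of its family. Ldha, the lactate dehydrogenase of anaerobic muscle, exceeded Ldhb by 1.72 to 2.52-fold, and the lactate exporter Slc16a3 (341 to 410 TPM) exceeded Slc16a1 (68.4 to 119 TPM).

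The enolases show how far the length matters. With the deposited length, Eno3, the muscle enolase, exceeded Eno1 in all 4 libraries (log2 ratio of Eno1 to Eno3 -0.89 ± 0.24, SD, n = 4). With the longest transcript that log2 ratio was 0.37, so the order turned. Of the 51 pairs of family members with a value in every library, Eno1 and Eno3 was the only pair of one fixed order whose order turned in this way. In 46 of the 51 the same member was higher in all 4 libraries.

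**Figure D3:**
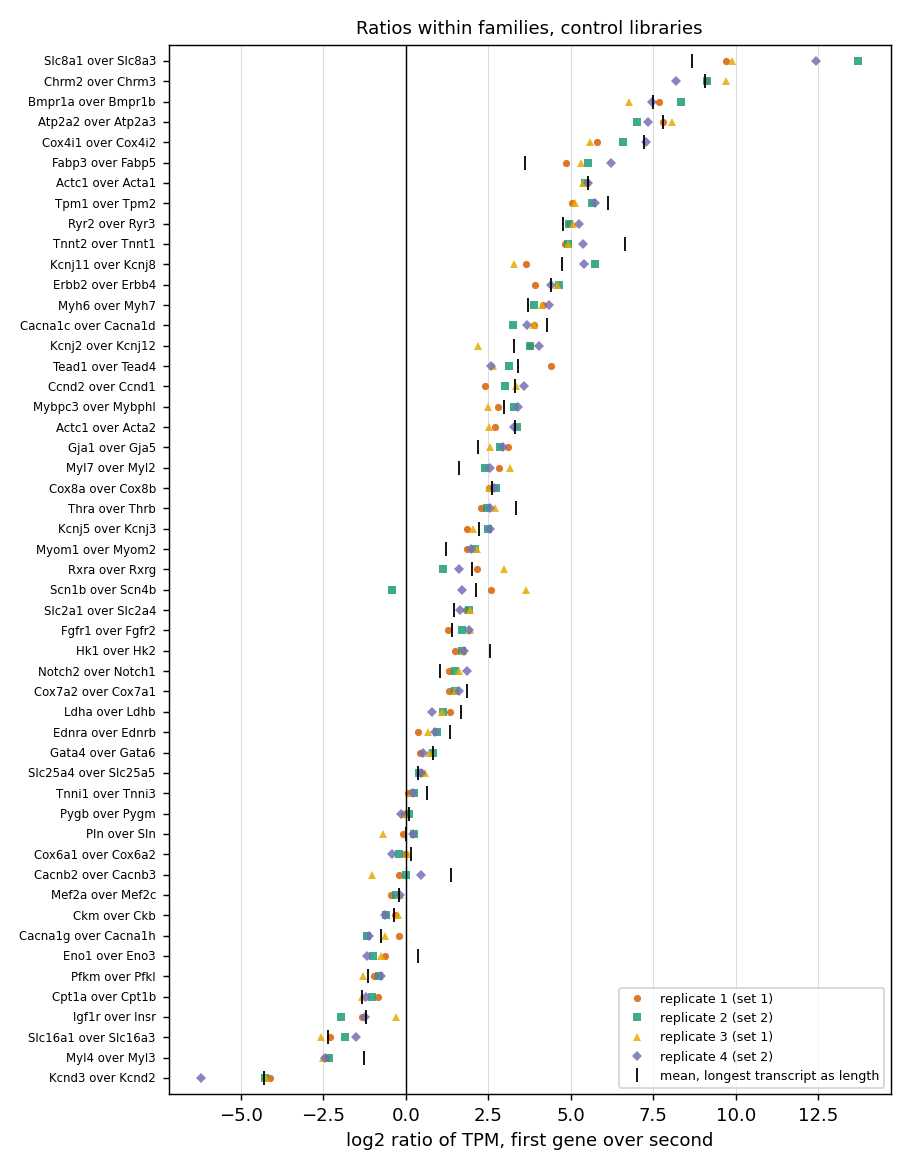
The log2 ratio of TPM of the first to the second gene for 51 pairs, with 1 point per control library. The black ticks give the mean with the longest annotated transcript as length. The tick crosses 0 from the library points for Eno1 over Eno3, at 0.37 against a mean of -0.89.

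Among genes of fatty acid use, Cpt1b, the muscle form of the enzyme that admits fatty acids to mitochondria, was at 65.6, 82.5, 69.3 and 96.4 TPM. Cpt1a, the liver and embryonic form, was at 36.8, 40.8, 27.4 and 41.6 TPM, below Cpt1b in all 4 libraries (log2 ratio of Cpt1a to Cpt1b -1.10 ± 0.22, SD, n = 4). Of the exon bases of Cpt1b, 81.4% are shared with the model of Chkb (24.6 TPM) on the same strand, so its level is uncertain. Fabp3, the heart fatty acid binding protein, was at 1690 to 2015 TPM and held 97.5% of its family. The uptake genes Cd36 (70.0 to 109 TPM) and Lpl (56.8 to 89.6 TPM) were of similar level, and with the longest transcript Lpl led. Ppargc1a was at 22.9 to 42.1 TPM and Esrrg at 11.6 to 31.0 TPM, while Ppara, a driver of postnatal fatty acid oxidation, was at 1.36 to 2.66 TPM.

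Muscle and general forms of the respiratory chain were mixed. Cox6a2, the heart and skeletal muscle form, and Cox6a1, the general form, were not separated: Cox6a2 was at 2040, 2096, 2165 and 2344 TPM and Cox6a1 at 2022, 1806, 2281 and 1763 TPM. The general form led for subunit 7a, where Cox7a2 exceeded the muscle Cox7a1 by 2.47 to 3.07-fold, and for subunit 8, where Cox8a exceeded the muscle Cox8b by 5.73 to 6.60-fold. Slc25a4, the muscle ADP/ATP carrier, exceeded Slc25a5 by 1.32 to 1.49-fold. Ckb, the brain creatine kinase, was at 868 to 990 TPM and Ckm, the muscle one, at 577 to 840 TPM, the lower in each library. Glycogen phosphorylase was shared between Pygm (451 to 642 TPM) and Pygb (437 to 624 TPM).

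Erbb2, a neuregulin co-receptor needed for trabeculation, was at 25.8, 35.5, 33.4 and 44.0 TPM, and its partner Erbb4 at 1.71, 1.41, 1.39 and 2.09 TPM. Chrm2, the muscarinic receptor of the heart, was at 65.2, 65.7, 39.2 and 61.8 TPM and held 99.4% of its family. Among the adrenergic receptors, Adra1b was at 5.70 to 12.4 TPM and Adrb1, a beta receptor of the heart, at 2.33 to 3.46 TPM. Adora1, the adenosine receptor that slows the heart, was at 22.4 to 27.8 TPM.

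Among growth factor receptors, Bmpr1a, a BMP receptor needed in the myocardium, led its list at 42.5 to 61.9 TPM. Igf2r, which clears IGF2, was at 57.6 to 81.5 TPM. Insr (9.58 to 18.4 TPM) exceeded Igf1r (4.51 to 7.83 TPM) in every library, by the smallest margin in replicate 3. Il6st, the shared gp130 receptor, was at 50.2 to 76.9 TPM, while Il6ra did not exceed 0.0615 TPM. Ednra and Ednrb, the endothelin receptors, were at 19.4 to 41.5 and 12.1 to 23.9 TPM. Fgfr1 at 2.37 to 5.07 TPM and Notch2 at 2.18 to 3.61 TPM led lists in which 2 and 3 of 4 members were under 1 TPM.

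Of 15 cardiac transcription factors 14 were at 1 TPM or more, led by Myocd, the SRF co-activator of muscle genes, at 85.7, 89.0, 46.7 and 98.4 TPM, and by Tbx5 at 61.4 to 70.9 TPM. Gata4 exceeded Gata6 by 1.36 to 1.77-fold. Mef2b had 3 counts or fewer in each library, with most of its exon bases shared with the model of Borcs8 (33.8 TPM) on the same strand. Isl1, a progenitor and sinus node factor, was at a mean of 1.94 TPM. All 7 proliferation markers were present, from Mki67 at 11.6 to 16.8 TPM to Ccnb1 at 125 to 155 TPM. Ccnd3 was at 108 TPM in replicate 1 and 198 to 213 TPM in the other 3, and Ccnd2 was at 128 to 151 TPM. Tead2 (27.2 to 35.0 TPM) led the partners of YAP over Tead1 (3.70 to 7.08 TPM).

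Both atrial and ventricular markers were measured. As a background for the counts of genes at 1 TPM here and below, 11189 of 21811 protein-coding genes reached 1 TPM in every library. A count near that share does not by itself show that a cell type or region is present. Of 14 atrial genes 13 were at 1 TPM or more, with a summed level of 43095 to 51613 TPM, nearly all of it Nppa and Myl7. Nr2f2 and Nr2f1, the factors that set atrial identity, were low, at means of 2.74 and 0.636 TPM. All 10 ventricular genes were at 1 TPM or more, with a sum of 7839 to 9815 TPM. Irx4, a ventricular factor, was at 28.9, 43.9, 32.6 and 45.9 TPM. Hey2, of the compact ventricular wall, was at 7.67, 9.35, 4.94 and 10.9 TPM. In the embryonic heart Nppa and Myl7 are made in ventricular myocardium too, so their levels alone do not show the chamber. In bulk RNA, fewer cells of a type and less RNA per cell cannot be told apart.

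Specialised regions of the heart were represented unevenly. Nppb, a trabecular gene, was at 943, 854, 709 and 681 TPM, but Bmp10, the trabecular growth factor, at a mean of 0.512 TPM. Mycn, of the compact wall, was at 27.2 to 30.7 TPM. Of 13 genes of the sinus node and atrioventricular canal, 11 were at 1 TPM or more, led by Smoc2 at 122 to 177 TPM. Tbx3, the repressor that marks conducting myocardium, was at 7.49 TPM in replicate 1 and 17.5 to 22.8 TPM in the other 3. Shox2 was at 1.23 TPM and Tbx2 at 0.409 TPM on average. Of 6 outflow tract genes 4 were at 1 TPM or more, too few genes to set apart from the share of all protein-coding genes. The highest means were those of Sema3c (15.1 TPM) and Rspo3 (14.0 TPM). The outflow tract factors Fgf8 and Fgf10 did not exceed 0.215 TPM.

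Transcripts of other heart cells were also measured. In the mesenchyme list 10 of 12 genes were at 1 TPM or more, led by Col1a1 at 390, 193, 464 and 207 TPM and Col3a1 at 150, 71.8, 147 and 82.2 TPM. Epicardial genes were all 11 at 1 TPM or more, led by Upk1b (94.7 to 149 TPM), Krt19 (86.5 to 127 TPM) and Msln (72.8 to 94.1 TPM), while Wt1, the epicardial factor, was at a mean of 4.33 TPM. Of 16 endothelial and endocardial genes 15 were at 1 TPM or more, led by Emcn (38.7 to 56.2 TPM), and their sum of 189 to 249 TPM was below that of the mesenchyme list, at 436 to 911 TPM. Of 12 smooth muscle and pericyte genes 10 were at 1 TPM or more, and 3 of them at 100 TPM or more. Acta2, which cardiomyocytes share, led this list, and Cnn1 followed at a mean of 345 TPM. Myh11, the smooth muscle myosin, was at 0.676 to 2.16 TPM.

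Of 12 macrophage genes 7 were at 1 TPM or more, a share near that of all protein-coding genes (11189 of 21811 in every library). The macrophage sum of 701 to 860 TPM was mostly Lyz2 (84.1%). Lyz2, a myeloid lysozyme, was at 691, 738, 595 and 581 TPM. Tyrobp, a myeloid signalling adaptor, was at 30.5 to 46.0 TPM, Adgre1 at 15.8 to 23.6 TPM and Csf1r, the macrophage growth factor receptor, at 9.69 to 11.5 TPM. Ptprc (CD45), which all leukocytes make, was at a mean of 0.332 TPM, and at 0.885 TPM with the longest transcript as length. Pf4 of platelets was at 46.8 to 65.9 TPM. The globins held 0.00299% to 0.00487% of TPM, with Hba-a1 at 9.46 to 17.3 TPM. Tubb3, a neuronal tubulin, led the neural genes at 41.8 to 60.4 TPM. None of the hepatocyte, skeletal muscle lineage and epithelial genes reached a mean of 1 TPM. Myod1 and Pax7 had no count, which allows at most 0.140 and 0.0443 TPM per library.

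**Figure D4:**
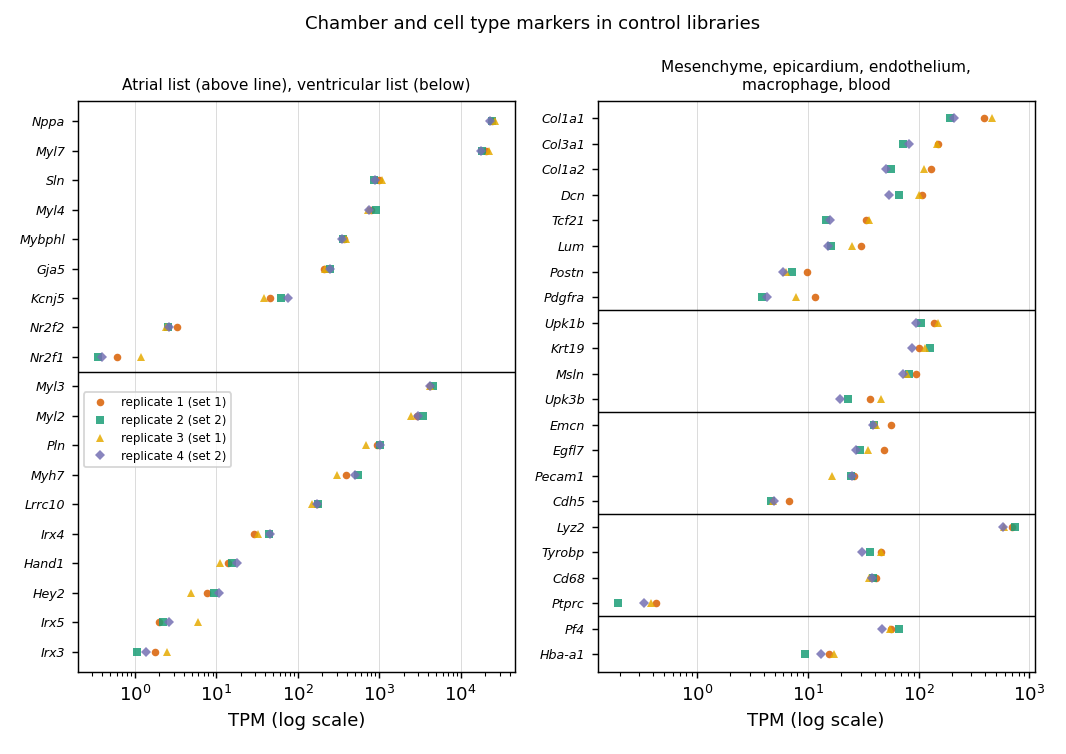
TPM on a log axis for chamber markers (left, atrial above and ventricular below the line) and markers of other cell types (right, separated by lines), with 1 point per control library. For Col1a1 both set 2 libraries (193 and 207 TPM) lie left of both set 1 libraries (390 and 464 TPM), and Ptprc is below 1 TPM in all 4.

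The sets named in the headers were compared, 2 libraries against 2. By the quasi-likelihood test of edgeR with Benjamini-Hochberg adjustment, 0 of 16411 genes passed an adjusted p of 0.05 (0% called), and 2071 had an unadjusted p under 0.05. The outcome depended on the library and the tool. Without replicate 1 the same test called 2137 genes, without replicate 3 it called 1469, and the Wald test of DESeq2 called 265 with all 4 libraries. With no filter beyond 1 count edgeR called 740 of 31411 genes, and limma-voom called 0. No gene is therefore reported as changed between sets, and the values below describe an order only.

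In that order, the mesenchyme and epicardial lists stood mostly on one side and the ventricular list on the other. Of the 10 mesenchyme genes at 1 TPM or more, 8 were lower in both libraries of set 2 than in both of set 1, against 22.9% of all 14249 genes at that level. For epicardial genes it was 7 of 11, for smooth muscle genes 6 of 10, for endothelial genes 5 of 15 and for erythroid genes 3 of 6. Tcf21 is counted in both the mesenchyme and the epicardial list. Of 7 macrophage genes 1 was lower and 3 were higher in both libraries of set 2, and none of 4 platelet and mast cell genes had either order. Of the 10 ventricular genes, 8 were higher in both libraries of set 2, against 24.9% of all genes, and of the 8 cardiomyocyte genes 5 were. The atrial list did not share this order: of 13 genes, 4 were lower (30.8%) and 3 higher (23.1%), near the shares of all genes. Col1a2 was at 128 and 112 TPM in set 1 and 56.3 and 51.1 TPM in set 2 (edgeR adjusted p = 0.276), and Tcf21 at 33.8 and 35.7 against 14.5 and 15.9 TPM (edgeR adjusted p = 0.276). Myh7 was at 394 and 305 TPM in set 1 and 549 and 500 TPM in set 2 (edgeR adjusted p = 0.308). Without replicate 1, 9 of the 10 mesenchyme genes were lower in both set 2 libraries than in replicate 3 (33.3% of all genes), and 8 of the 10 ventricular genes were higher (48.2% of all genes). Without replicate 3 the counts were 9 (44.0%) and 9 (34.8%). Whether the share of mesenchymal or epicardial cells had a part in the order of the ventricular genes was not tested.

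Individual libraries also stood apart, in a search made after the data were seen. Of 8786 protein-coding genes with a mean of at least 5 TPM, 265 were in replicate 1 at 0.5 times the lowest of the other 3 libraries or less. The same count was 2 for replicate 2, 25 for replicate 3 and 5 for replicate 4. Chchd10, a mitochondrial intermembrane protein, was at 123 TPM in replicate 1 and 948 to 1185 TPM in the other 3. Hspb1, a small heat shock protein of muscle, was at 45.5 against 263 to 371 TPM. Xbp1, the factor of the unfolded protein response, was at 42.9 against 196 to 228 TPM. Uqcrfs1 and Cyc1, both of respiratory complex III, were at 406 against 1212 to 1255 TPM and at 1148 against 2415 to 2503 TPM. Listed genes in this group were Nkx2-5, Kcnq1, Tbx3, Synpo2l, Acsl3, Ccna2 and Lrrn4.

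The 265 genes were compared with all 8786 in several properties. Their longest transcripts had a median of 53.1% G and C against 49.8%, and the first 300 bases 69.7% against 60.3%. Overlap with an exon on the other strand was found in 30.6% against 27.7%, and the median lengths were 3542 and 3872 bases. Genes of the X chromosome were 2 of the 265 (0.755%) against 3.32%. In replicate 1 the 10th of genes poorest in G and C had a median deviation of 0.12 from the mean of the 4 libraries on the log2 scale and the richest 10th one of -0.05, a smaller slope than in replicate 3, at -0.24 and 0.16. The 25 genes low in replicate 3 had a median of 39.7% G and C, and they included Slc8a1, Kcnj2 and the mitochondrial mt-Co3 and mt-Atp6.

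In replicate 2 the genes that stood apart were 16 with at least 2 times the highest other library. They included Hmgcs1, Fdft1, Cyp51, Fdps, Msmo1, Acat2, Mvd, Sqle, Nsdhl, Insig1, Idi1, Lss, Dhcr7, Scd1 and Tm7sf2. As background, most of these encode enzymes that lead from acetyl-CoA to cholesterol, Insig1 encodes a sterol-sensing regulator and Scd1 a fatty acid desaturase. Hmgcs1 was at 956 TPM in replicate 2 and at 198 to 312 TPM in the other 3. Fdft1, squalene synthase, was at 470 against 148 to 159 TPM. The number of such genes was 4 for replicate 1, among them the chemokines Cxcl5 and Cxcl1, then 3 for replicate 3 and 0 for replicate 4.

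**Figure D5:**
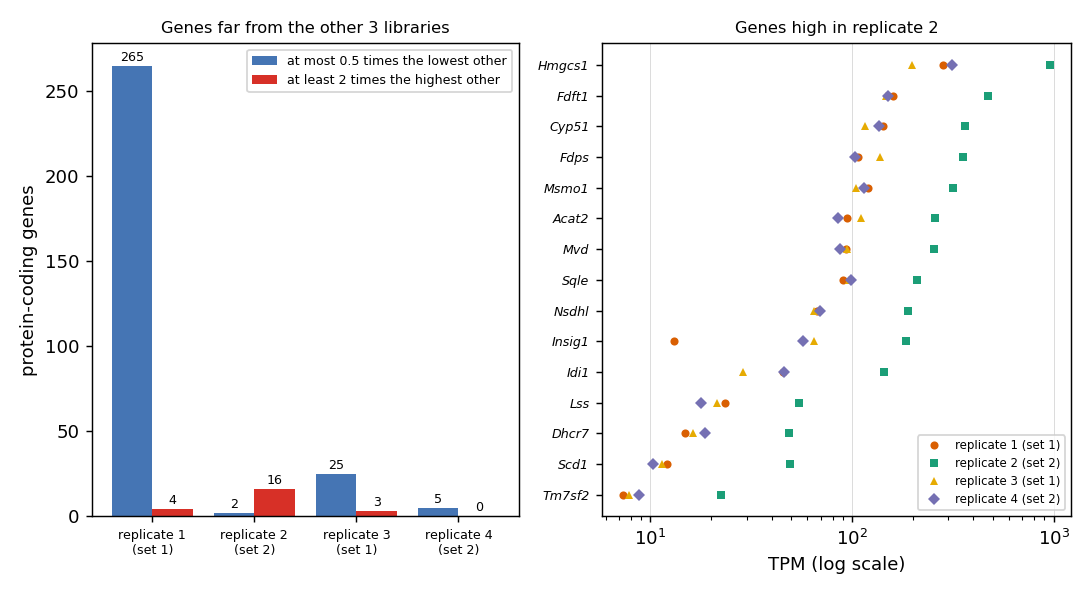
Left, the number of protein-coding genes (mean at least 5 TPM) at 0.5 times or less the lowest other library, in blue, or at 2 times or more the highest other library, in red, for each control library. Right, TPM on a log axis of 15 of the genes highest in replicate 2, with 1 point per library, where Hmgcs1 at 956 TPM is farthest right.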

How the data were processed

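RNA sequencing gave 4 control libraries, grouped by the treatment label. The authors deposited raw counts, with a length for each gene. Per the submitters' processing notes, the authors used Trimmomatic 0.36, STAR 2.5.2b and featureCounts of Subread 1.5.2 on GRCm38 (mm10). The strand setting, annotation release and handling of reads with several matches are not stated in the sources used here. TPM was computed from the counts and the deposited length (Python 3.11.15). Symbols, positions and transcript lengths came from GENCODE, which matched 99.3% of identifiers and had identical positions for 91.0%. Coordinates are those of the files, and promoters those of RefSeq on the same build, which held 26 of the 30 most abundant genes. Sets were compared with edgeR 4.0.16 (R 4.3.3, TMM, filterByExpr, two-sided, Benjamini-Hochberg), tested on simulated data. The simulated libraries varied less than these and none stood apart, so that test does not give the power or error here. DESeq2 1.42.0 and limma 3.58.1 were alternatives, with others in the closing section.

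Named were the 30 highest genes without predicted ones, and leaders, next members and pairs in 88 lists. Some genes of these lists are not reported here. The members and lists were chosen with earlier results of these data known. Single libraries' genes, and the CArG box, were chosen after their values were seen.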

Additional observations from a re-analysis of the deposited data

Results flagged for a closer look

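Of 218 named genes, 37 had 1 library whose distance from the nearest of the other 3 took most of the range, beyond Dixon's 95% limit for 4 values. Among all 14249 genes at 1 TPM or more the share was 6.19%, and chance gives about 1 in 20. Many of the named genes were picked because a library stood apart, so their number is no measure of it.

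In replicate 2, 15 genes were high, and 14 of them are among the genes described above as high there. Their levels there were Acat2 258, Cyp51 363, Dhcr7 48.6, Fdft1 470, Fdps 357, Hmgcs1 956, Idi1 144, Lss 54.6, Msmo1 315, Mvd 254, Nsdhl 190, Scd1 49.1, Sqle 209 and Tm7sf2 22.5 TPM. Myl3, the ventricular light chain, was the other at 4580 TPM. Gata6, a cardiac factor, was low in replicate 2 at 11.6 TPM.

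Replicate 1 was low for Ccnd3 (108 TPM), Cyc1 (1148 TPM), Kcnq1 (15.0 TPM) and Uqcrfs1 (406 TPM). It was high for Emcn at 56.2 TPM, Kcne1 at 102 TPM and Tbx5 at 70.9 TPM. Replicate 3 was low for Chrm2 (39.2 TPM), Gja1 (1255 TPM), Insr (9.58 TPM), Kcnj2 (7.32 TPM) and Myh11 (0.676 TPM). It was high for Bmp10 (0.967 TPM), Cox7a2 (2201 TPM), Crip2 (4527 TPM), Pfkl (615 TPM) and Shox2 (1.48 TPM). Replicate 4 was low for Gapdh at 3733 TPM and Tnnt1 at 95.5 TPM. Myh4 at 0.0575 TPM and Tnnc2 at 0.216 TPM were flagged as high in replicate 4, on 4 and 2 counts. The level of Tnnc2 is therefore not read, and 74% of its exon bases lie opposite those of Ube2c (136 TPM). The ratio of Kcnd3 to Kcnd2 was lowest in replicate 4 too, at 0.0137, and rests on 4 counts of Kcnd3. No cause of these differences was tested.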

How the results depend on the processing

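The limit that touched most values was gene length, since a merged gene model and a single transcript can differ in length many times over. With the longest annotated transcript, the log2 ratio of Myh6 to Myh7 was 3.72, of Myl7 to Myl2 1.61, of Tnni1 to Tnni3 0.64, of Slc2a1 to Slc2a4 1.48 and of Cpt1a to Cpt1b -1.32, each in the reported direction but beyond 1 SD from it. That of Eno1 to Eno3 turned to 0.37. Of the 51 pairs, 26 others moved beyond 1 SD with that length, among them Myl4 to Myl3 at -1.25. Of 218 named genes, the mean of 39 moved by more than 1.5 times with that length, of 0 with the mitochondrial genes left out of the denominator, of 20 with set 1 alone, of 16 with set 2 alone and of 2, 6, 3 and 3 without replicates 1, 2, 3 and 4. Without 1 replicate the 6 main ratios ran from 4.06 to 4.21 (Myh6 to Myh7), 2.60 to 2.85 (Myl7 to Myl2), 0.14 to 0.21 (Tnni1 to Tnni3), 5.44 to 5.49 (Actc1 to Acta1), 1.80 to 1.90 (Slc2a1 to Slc2a4) and -1.19 to -1.02 (Cpt1a to Cpt1b).

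The comparison of sets was the least settled result. Against 0 genes in edgeR, DESeq2's Wald test called 265 (101 higher in set 2), no filter beyond 1 count called 740, and leaving out 1 replicate gave 0 to 2137 (0 without replicate 2 or 4). With 1 library left in a set, that library is assumed to vary like the other set. DESeq2's size factors, library totals, limma-voom, a filter of 1 CPM and leaving out mitochondrial and haemoglobin genes called 0. A replicate block on the control number also called 0. Deviations of libraries with the same number correlated at 0.0163. Single libraries also stood apart on their own, so this value cannot show whether the numbers mark pairs. Genes at 1 TPM in every library numbered 12484 with the longest transcript, 12890 without mitochondrial genes and 12992 to 13135 without 1 replicate. At thresholds of 0.5 and 5 TPM they numbered 14394 and 8593. Of 526 listed or named genes, 388 were at a mean of 1 TPM or more, and 384 to 390 without 1 replicate, a check added after seeing the data.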

Other observations

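Nuclear hormone receptors, not described above, were led by Rarb, a retinoic acid receptor, at 21.8, 24.0, 23.5 and 34.5 TPM. Thra, the main thyroid hormone receptor of the heart, exceeded Thrb in all 4 libraries, by 4.85 to 6.51-fold. Nr3c1, the glucocorticoid receptor, was at 12.1 to 18.4 TPM, while Esr1 and Pgr did not exceed 0.304 TPM. Of the pyruvate dehydrogenase kinases, which hold pyruvate back from the mitochondrion, Pdk2 was at 177 to 265 TPM and Pdk3 at 131 to 232 TPM. Pdk4, the form of fasting and fatty acid use, was at 29.3 to 49.3 TPM.

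The 13 protein genes of the mitochondrial genome differed widely in level. Against 7491 to 14933 TPM for mt-Co1, the neighbouring mt-Co2 was at 95.4 to 257 TPM, mt-Atp6 at 123 to 360 TPM and mt-Co3 at 209 to 486 TPM. On chromosome 1, the pseudogene models Gm28437 and Gm29216 were at 371 to 801 and 319 to 545 TPM, both lowest in replicate 3, as mt-Co2, mt-Atp6 and mt-Co3 were. Whether these models and the mitochondrial genes share reads was not tested. Gm23935, a model of 57 bases annotated as a miRNA, was at 7510 to 9568 TPM. So short a length raises the TPM of a given count, and where its reads come from was not tested. These models were chosen after their values were seen.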
